A study of Mus musculus with 19 samples.

Results

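The comparison described here was that of 3xTgAD/Polb+/- with Polb+/- mice, in which the animals of both groups carry 1 disrupted copy of Polb and those of 1 group also carry the 3xTgAD alleles. Its members were chosen by array title and genotype label. They were 4 arrays of 3xTgAD/Polb+/- (called double mutant from here) and 4 of Polb+/-, 8 of the 19 arrays of the study, and the comparison was made over the 11072 genes detected in the tissue. All 8 arrays held RNA of the prefrontal cortex of female mice killed at 20 months of age, with C57BL/6 as the labelled strain. The 3xTgAD line carries the APPswe and tau P301L transgenes and a further allele that is not described here, and the double mutants came from a cross of that line with Polb+/- mice. The other 11 arrays were 6 of 3xTgAD and 5 of wild type mice, which carry no disrupted Polb allele according to their labels. They entered the fit, shared its estimate of the spread and gave the same transgene comparison in mice labelled as carrying both Polb copies. Because the double mutants descend from the 3xTgAD line, the transgenes and any other DNA inherited from that line cannot be told apart here. The labels did not state how many mice or litters stood behind the arrays, so the p-values measure the spread between these samples. The column headings of 3xTgAD replicates 2 and 5 held the same code, so these arrays may come from 1 mouse. They were kept apart in the fit.

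Polb encodes DNA polymerase beta, which fills the short gap left after a glycosylase and an endonuclease have removed an oxidised or deaminated base. This base excision repair is a main route of repair for oxidative DNA damage in neurons, which do not divide. The 3xTgAD mouse is a model of Alzheimer's disease in which APP and tau are driven from a Thy1 promoter, so their expression is mainly neuronal. Such mice accumulate amyloid beta and hyperphosphorylated tau with age.

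In the double mutants, 24 of the 11072 genes passed the threshold against Polb+/-, which was an adjusted p under 0.05 (0.217% of the genes tested). Of these, 11 were higher (0.0993%) and 13 were lower (0.117%). With the 3xTgAD arrays of the same code averaged, 8 were higher and 16 lower, of which 20 were among the 24. The gene with the smallest p was Vps33a, a subunit of the tethering complexes that bring endosomes and lysosomes to fuse, which rose by 0.79 on the log2 scale. Lypd1, a membrane-anchored modulator of nicotinic acetylcholine receptors, fell by 1.03 and had the next smallest p. Among these 24, the widest differences were those of the predicted gene Gm3696, detected on every double-mutant array and on no Polb+/- array, and of Spata7, a ciliary gene with the opposite pattern. Below the threshold, markers of striatal projection neurons and genes of oxidative phosphorylation and of the ribosome were mostly lower in the double mutants, with array patterns that are described with each list.

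**Figure D1:**
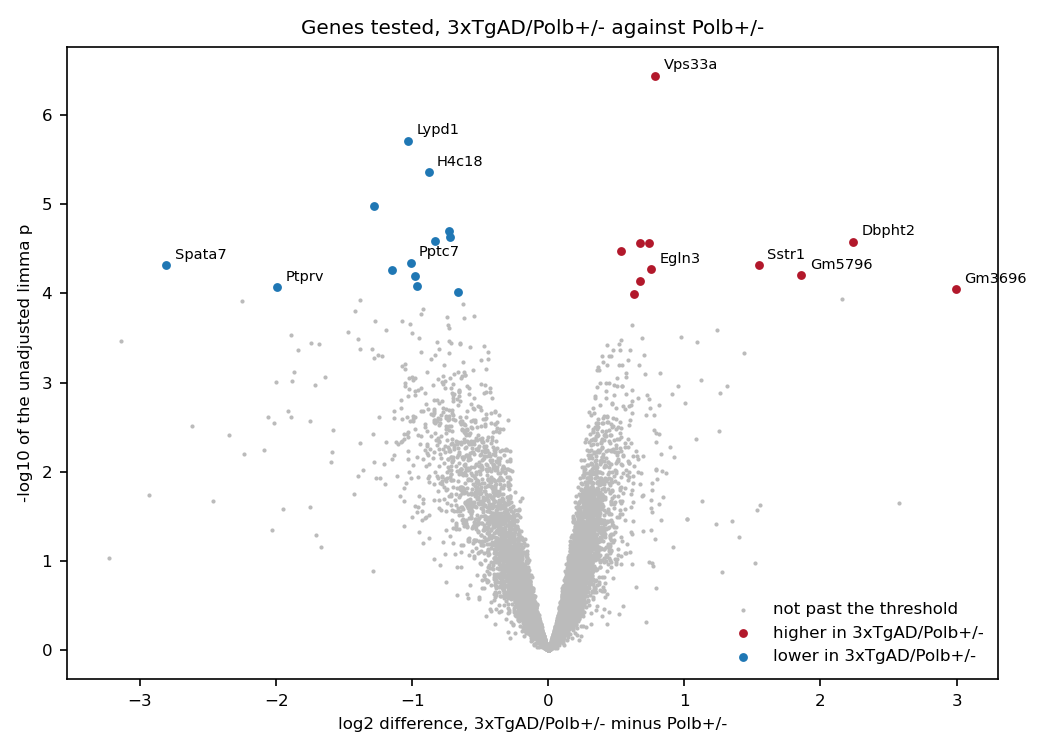
Each point is 1 of the 11072 genes tested, with the log2 difference of 3xTgAD/Polb+/- minus Polb+/- on the horizontal axis and minus log10 of the unadjusted limma p on the vertical axis. The 11 genes that passed the threshold with higher signal are red and the 13 with lower signal are blue; Vps33a stands highest, and Gm3696 and Spata7 lie far to the right and left.

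The values are log2 intensities after background correction and quantile normalisation, where 1 unit is a doubling of signal. Differences come from a limma fit with the spelling of the age in the source label as a block, so they can deviate from the plain difference of 2 group means. Adjusted p-values are two-sided limma p-values corrected by the Benjamini-Hochberg method over all 11072 genes. At an unadjusted p under 0.05 there were 2004 genes (18.1%), of which 940 were higher (8.49%) and 1064 lower (9.61%). Arrays of the groups did not overlap for 262 genes that were higher (2.37%) and 306 that were lower (2.76%) in the double mutants. The median difference over all genes was 0.03.

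Array-wide measures were as follows. Between 13255 and 13993 probes were detected on the double-mutant arrays and between 13409 and 14396 on the Polb+/- arrays, with median raw intensities of 76.2 to 91.1 and of 80.3 to 96. The first principal component of the 8 arrays held 41.0% of the variance and ranged from -41.7 to 28.5 among the double mutants, across the values of the Polb+/- arrays. The second held 21.9% and separated the genotypes, with double mutants from 5.75 to 22.5 and Polb+/- arrays from -19.9 to -3.42. The source labels spelled the age as "20- month" on double-mutant arrays 1 and 2 and Polb+/- arrays 1 to 3, and as "20 month" on double-mutant arrays 3 and 4 and Polb+/- array 4. The labels do not say what this spelling stands for. The count of genes past the threshold depended on it. Among "20- month" arrays alone, 401 genes were higher and 871 lower, and among "20 month" arrays alone, with 1 Polb+/- array assumed to vary like the other groups, 5 were higher and 7 lower. It depended on single arrays as well. Leaving out 1 of the 8 arrays in turn gave between 1 and 250 higher and between 2 and 535 lower genes, with the most without double-mutant replicate 3, 40 and 78 without replicate 4, at most 3 in either direction without double-mutant replicate 1 or 2 or Polb+/- replicate 1 or 3, and 4 in each direction without Polb+/- replicate 4. Vps33a and Lypd1 passed in each of these 8 fits, and the other 22 called genes missed the threshold in at least 3 of them.

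The tissue label was checked against markers. The 18 tested genes of cortical layers and excitatory neurons, of 23 listed, had a mean of 9.97 to 10.06 on the double-mutant arrays and of 9.95 to 10.07 on the Polb+/- arrays. The arrays of the groups overlapped, and the median difference was 0.00, with 9 genes higher and 9 lower. Rprm, a layer marker on the lower side, had the smallest p of the list (difference -0.65, adjusted p = 0.0687). Neurod2, a transcription factor of cortical excitatory neurons, was detected on all 8 arrays. Its log2 intensity was 8.18, 8.12, 8.24 and 8.54 in the double mutants and 7.72, 7.87, 7.68 and 7.86 in Polb+/- mice (adjusted p = 0.0867).

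Striatal markers were also present, and they separated the groups. The mean of the 11 tested markers of striatal projection neurons was 9.48, 9.40, 8.65 and 9.35 on the double-mutant arrays and 10.99, 10.30, 10.96 and 10.62 on the Polb+/- arrays, with no overlap. All 11 were lower in the double mutants, against 44.3% of all genes, with a median difference of -1.26. At an unadjusted p under 0.05, 10 of the 11 were lower, against 9.61% of all genes, and none passed the threshold. Among the markers not tested, Adora2a, Penk and Rasd2 had no named probe and Adcy5 was not detected on the 8 arrays. For Scn4b, a sodium channel subunit of striatal neurons, log2 intensity was 11.70, 11.54, 10.36 and 11.13 in the double mutants and 12.48, 12.36, 12.87 and 11.77 in Polb+/- mice (difference -1.05 ± 0.256, SE, adjusted p = 0.0755). Pde1b, a calmodulin-dependent phosphodiesterase, differed by -0.89 ± 0.221 (adjusted p = 0.0805).

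The best known markers of these neurons, named after their values were seen, had the same order of groups. Drd1, the D1 dopamine receptor, had log2 intensities of 8.32, 8.86, 6.79 and 8.31 in the double mutants and of 10.51, 9.75, 10.40 and 10.03 in Polb+/- mice. Drd2, the D2 receptor, differed by -2.09 ± 0.668 (adjusted p = 0.122), Tac1, the substance P precursor, by -1.89 ± 0.541 (adjusted p = 0.104) and Ppp1r1b, the dopamine-regulated phosphatase inhibitor DARPP-32, by -1.13 ± 0.369 (adjusted p = 0.126). In these tissue samples, fewer cells of a type and less RNA per cell cannot be told apart. The striatal means of the other groups spread widely, from 8.93 to 10.71 among the 6 3xTgAD arrays and from 8.62 to 10.58 among the 5 wild type arrays. With each array's striatal mean added to the fit as a covariate, 0 genes passed the threshold in limma, and 451 genes were higher and 586 lower at an unadjusted p under 0.05. The difference of Vps33a was then 0.78 (adjusted p = 0.076) and that of Lypd1 -0.78 (adjusted p = 0.187). Since the striatal means of both groups do not overlap, the genotype and the striatal signal cannot be told apart within these 8 arrays.

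**Figure D2:**
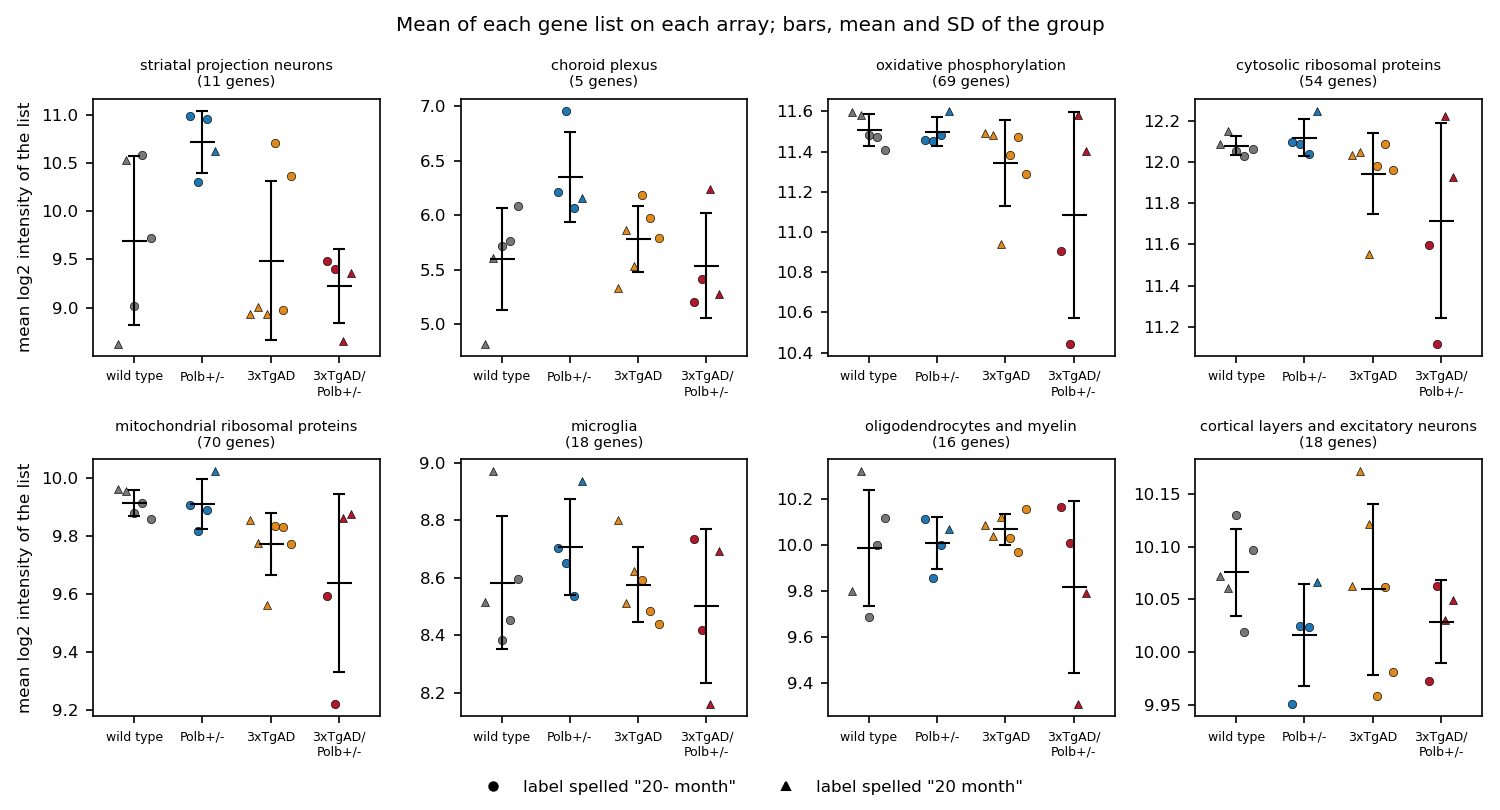
Mean log2 intensity of 8 gene lists on each array, by genotype; circles and triangles give the spelling of the age in the source label, and bars are the group mean and SD. The striatal list is lower on all 4 3xTgAD/Polb+/- arrays than on any Polb+/- array, the oxidative phosphorylation and ribosomal lists are low on 2 of the 4 3xTgAD/Polb+/- arrays, and the cortical list differs little between groups.

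The targeted genes were examined next. Polb, measured by 1 probe, had log2 intensities of 7.21, 7.09, 6.53 and 7.16 in the double mutants and of 7.26, 7.21, 6.95 and 6.98 in Polb+/- mice, which both carry the disrupted allele. These overlapped (difference -0.13 ± 0.214, adjusted p = 0.779). Wild type arrays had a mean of 7.73 ± 0.17 (SD, n = 5), above all 8 arrays of the comparison. Whether the probe lies in the disrupted part of the gene is not given in the sources used here.

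The transgenes are human cDNAs, and the array's probes are of mouse genes. App, the amyloid precursor, was 13.72, 13.81, 12.97 and 13.36 in the double mutants and 13.39, 13.29, 13.32 and 13.09 in Polb+/- mice, with overlap (difference 0.27 ± 0.106, adjusted p = 0.193). Of 4 probes for Mapt, which encodes tau, the brightest differed by 0.02 (adjusted p = 0.943). The next brightest, ILMN_1257750, differed by -0.01 and ILMN_3034121 by -0.13 (adjusted p = 0.965 and 0.672 over all probes). The dimmest, ILMN_3107817, differed by 0.80 ± 0.213 (adjusted p = 0.0924 over all probes). Thy1, whose promoter drives the transgenes, had log2 intensities of 14.02, 14.43, 14.17 and 14.61 against 13.63, 13.66, 13.52 and 13.90. The Thy1 values did not overlap, but the difference of 0.52 ± 0.161 missed the threshold (adjusted p = 0.116).

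Vps33a belongs to the Sec1/Munc18 family and is a core subunit of the HOPS and CORVET complexes, which tether late and early endosomes before membrane fusion. Its promoter is shown because it is the gene with the smallest p and because the promoters of many lysosomal genes hold the letters CACGTG, the core of the element bound by TFEB. The 300 bases around the start of Vps33a in the RefSeq table (GRCm38.p6, chr5:123572966-123573265, minus strand) hold these letters at 2 places, given in capitals, which begin 28 and 12 bases before the start.
Vps33a: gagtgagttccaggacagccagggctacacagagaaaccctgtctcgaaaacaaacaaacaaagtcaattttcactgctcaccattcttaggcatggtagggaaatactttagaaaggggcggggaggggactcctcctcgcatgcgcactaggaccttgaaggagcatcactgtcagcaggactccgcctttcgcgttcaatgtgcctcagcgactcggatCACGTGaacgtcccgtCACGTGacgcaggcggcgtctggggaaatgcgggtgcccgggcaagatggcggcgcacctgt
The letters read the same on both strands and occur in 7.24% of the 27025 promoters of the table and in 9.92% of those of genes tested. In the list of lysosome and autophagy genes, 12 of 31 promoters hold them (38.7%), and 3 of the 19 promoters of genes past the threshold do (15.8%). This is a description of letters, not of a bound site.

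Log2 intensity of Vps33a was 11.28, 11.20, 11.46 and 11.46 in the double mutants and 10.45, 10.45, 10.48 and 10.57 in Polb+/- mice. Every double-mutant array lay above every Polb+/- array, and the arrays within each group spanned less than the gap between them. The difference was 0.79 ± 0.103 (SE; 1.72-fold, adjusted p = 0.00405). A dimmer second probe differed by 0.63 ± 0.157 (adjusted p = 0.0836 over all probes). The 3xTgAD arrays had a mean of 11.24 ± 0.14 (SD, n = 6). In wild type mice the "20 month" arrays were at 11.22 and 11.31 and the "20- month" arrays at 10.79, 10.56 and 10.65, so that Polb+/- mice were the lowest group and wild type arrays split by the spelling of their label.

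The other core subunits of HOPS were looked up after the value of Vps33a had been seen, and none passed the threshold. Vps41 differed by 0.25, Vps11 by 0.13, Vps16 by -0.11, Vps39 by -0.07 and Vps18 by -0.05, and the arrays overlapped for each. Of 40 tested lysosome and autophagy genes, 26 were higher and 14 lower (median 0.06), and Vps33a was the 1 that passed.

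Of the other genes that rose, several act at membranes, in the cytoskeleton or in translation. Enah encodes an actin regulator of growth cones. It was dim, detected on 4 of 4 double-mutant and 2 of 4 Polb+/- arrays, and rose by 0.74 ± 0.13 (adjusted p = 0.0301). Frmd3, a FERM-domain protein, had log2 intensities of 7.98, 7.92, 8.22 and 7.88 against 7.40, 7.58, 7.26 and 7.06, without overlap (difference 0.68 ± 0.12, adjusted p = 0.0301). Nrip3, a nuclear receptor-interacting protein, was bright, at 11.92, 12.07, 12.36 and 11.96 against 11.39, 11.37, 11.48 and 11.70, and differed by 0.54 ± 0.10 (adjusted p = 0.034). Chrd encodes chordin, a secreted inhibitor of bone morphogenetic proteins, and rose by 0.63 ± 0.13 (adjusted p = 0.0465). Cpeb1 encodes a protein that binds cytoplasmic polyadenylation elements and controls translation at synapses. It rose by 0.67 ± 0.13 (adjusted p = 0.0419), with 1 double-mutant array at 7.75, inside the Polb+/- range of 7.45 to 7.92.

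Egln3 and Sstr1 also rose. Egln3 encodes an oxygen-dependent prolyl hydroxylase that marks hypoxia-inducible factor for degradation. Its log2 intensity was 7.35, 7.68, 7.58 and 7.91 in the double mutants and 6.72, 7.20, 6.72 and 6.77 in Polb+/- mice, where replicate 2 lay above the other 3 (difference 0.76 ± 0.15, adjusted p = 0.0377). Sstr1 encodes a receptor for the inhibitory peptide somatostatin. It was detected on 4 of 4 double-mutant arrays, at 6.77, 6.26, 6.13 and 6.71, and on 1 of 4 Polb+/- arrays, at 5.88, while the other 3 lay at 4.49, 4.52 and 4.60. The difference was 1.55 ± 0.30 (adjusted p = 0.0377). On the 3xTgAD and wild type arrays, Sstr1 was detected throughout, at 6.30 to 7.72 and 6.00 to 6.75. The peptide itself, Sst, was at 11.74, 11.31, 12.12 and 12.25 in the double mutants and at 12.36, 12.38, 12.53 and 12.49 in Polb+/- mice (difference -0.59, adjusted p = 0.128).

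The remaining 3 genes that rose have no role stated here. Gm3696 was detected on 4 of 4 double-mutant arrays, at 7.54, 8.02, 8.12 and 8.19, and on 0 of 4 Polb+/- arrays, at 4.68, 4.55, 4.67 and 4.59. It was at least 6.77-fold higher in the double mutants, a bound that sets the undetected arrays to the lowest detected signal (adjusted p = 0.0455). Its second probe differed by 1.19 ± 0.347. Gm5796 was at 12.10, 12.39, 12.04 and 12.65 against 10.39, 10.47, 10.19 and 10.06 (difference 1.86 ± 0.36, adjusted p = 0.0396). Both are predicted genes of chromosome 14. On wild type arrays they split by spelling. Gm3696 was at 8.75 and 8.72 on the "20 month" arrays and was not detected on the 3 "20- month" arrays (4.65 to 4.69), and Gm5796 was at 12.46 and 12.34 against 10.27 to 10.30. Dbpht2, a gene of chromosome 12, was at 9.31, 9.35, 9.69 and 9.72 in the double mutants. In Polb+/- mice it fell into separate levels, 6.02 and 5.87 on 2 arrays and 8.59 and 8.12 on the other 2 (difference 2.24 ± 0.41, adjusted p = 0.0301).

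Among the 13 lower genes, Lypd1, Unc5c, Igsf9, Kcna5 and Gpr135 encode proteins of the cell surface, as does Ptprv, described below. Lypd1 had log2 intensities of 8.95, 9.51, 9.58 and 9.69 in the double mutants and of 10.59, 10.09, 10.35 and 10.66 in Polb+/- mice. The groups did not overlap, and the difference was -1.03 ± 0.15 (adjusted p = 0.0108). The 3xTgAD and wild type arrays lay between 9.51 and 9.94, nearer to the double mutants. Unc5c, a netrin receptor of axon guidance, was at 7.45, 7.78, 8.32 and 8.51 against 8.36, 8.73, 8.31 and 8.95, and 2 Polb+/- arrays lay inside the double-mutant range (difference -0.72 ± 0.13, adjusted p = 0.0301). Igsf9, an immunoglobulin-family protein of dendrites and synapses, fell by 0.97 ± 0.19 (adjusted p = 0.0453), with overlap. Gpr135, an orphan G protein-coupled receptor, fell by 0.98 ± 0.19 (adjusted p = 0.0396), also with overlap. Kcna5 encodes a voltage-gated potassium channel and was detected on 4 of 4 Polb+/- arrays and on no other array of the study. It was near background, at 5.47, 5.17, 5.42 and 5.78 where detected, and was at least 1.11-fold lower in the double mutants (adjusted p = 0.046). Probes were kept if detected on at least 4 arrays, so Kcna5 was tested only through the group where it was high. Its p-value therefore adds no support to the difference.

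Enzymes and other genes made up the rest of the lower group. Pptc7, a mitochondrial matrix phosphatase, was at 9.46, 9.95, 10.81 and 9.87 in the double mutants and at 10.94, 10.82, 11.11 and 11.06 in Polb+/- mice, where the highest double-mutant array nearly reached the lowest Polb+/- array (difference -1.01 ± 0.19, adjusted p = 0.0377). Scly, which releases selenium from selenocysteine, fell by 0.83 ± 0.15 without overlap (adjusted p = 0.0301). Ptprv, a receptor-type tyrosine phosphatase, was detected on 4 of 4 Polb+/- arrays, at 7.88, 6.29, 7.71 and 5.85, and on 0 of 4 double-mutant arrays, and was at least 3.07-fold lower there (adjusted p = 0.0453). On 3xTgAD replicates 4 and 6, with the highest striatal means of that group, Ptprv was at 6.35 and 6.14. The other 3xTgAD arrays were at 4.64 to 4.94. Wild type replicates 2 and 4, also with the highest striatal means of their group, were at 5.92 and 6.20, and the other wild type arrays at 4.74 to 5.45. Myl2, a myosin light chain of heart and slow muscle, was at least 1.52-fold lower (adjusted p = 0.0377), detected on 0 of 4 against 4 of 4 arrays. H4c18, a histone H4 gene, had the same detection pattern and was at least 1.46-fold lower (adjusted p = 0.0162). Histone H4 copies are nearly identical, so its probe may not separate them. The unnamed probes ILMN_2597606 and ILMN_1228752 fell by 1.28 ± 0.22 and 0.73 ± 0.13 (adjusted p = 0.0292 and 0.0301).

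Spata7 encodes a protein of the connecting cilium of photoreceptors. It was at 4.59, 4.60, 4.56 and 4.63 on the double-mutant arrays, none of which detected it, and at 7.66, 7.49, 7.78 and 7.59 on the Polb+/- arrays, all of which did. Both of its probes showed this, and it was at least 4.99-fold lower in the double mutants (adjusted p = 0.0377). It was detected on 1 of 6 3xTgAD arrays, at 7.05, and on 4 of 5 wild type arrays, at 6.81 to 8.02, with the fifth at 4.48. The 3xTgAD array that detected Spata7 was replicate 6, which had the lowest Polb of its group, at 6.63. Arrays of all 4 genotypes thus took either a low or a high level of Spata7.

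**Figure D3:**
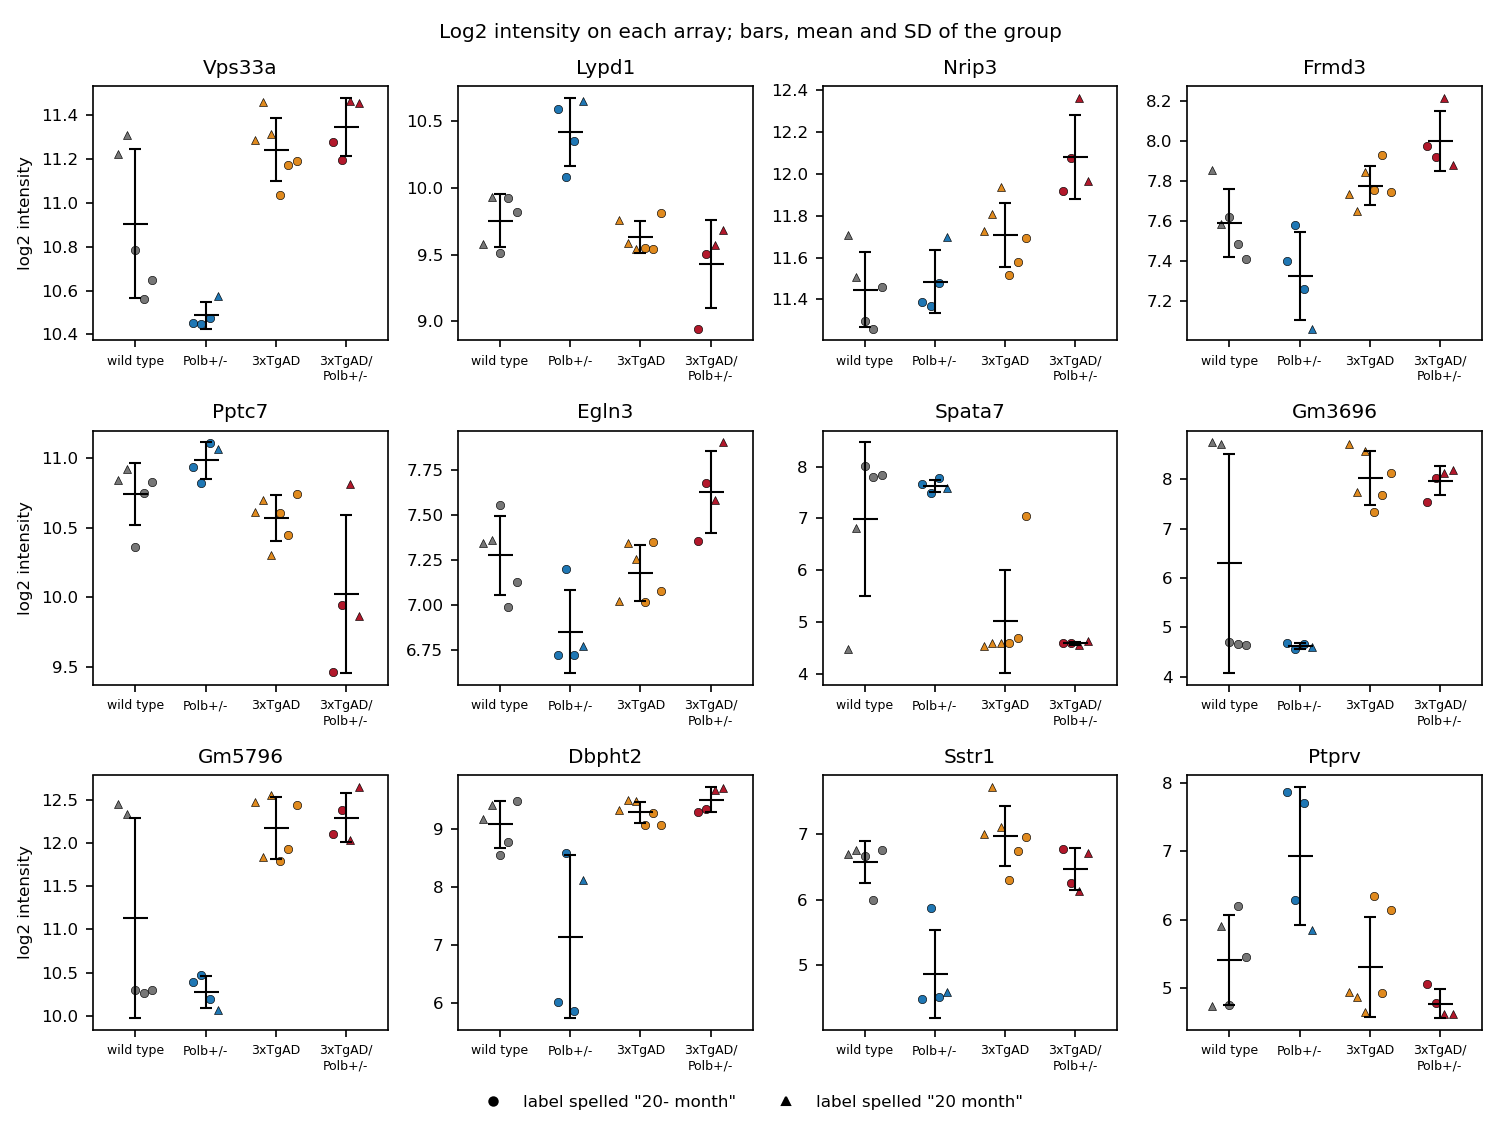
Log2 intensity of 12 genes past the threshold on each of the 19 arrays, by genotype; circles and triangles give the spelling of the age in the source label, and bars are the group mean and SD. Vps33a is higher and Lypd1 lower on all 3xTgAD/Polb+/- arrays than on any Polb+/- array, Spata7 and Gm3696 take a low and a high level, and Dbpht2 splits the Polb+/- arrays into 2 levels.

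The positions of these genes were counted by chromosome. Of the 24, 22 were placed, among 10213 placed genes tested. Chromosome 12 held 5 called genes of 337 tested (1.48%), against 17 of 9876 on all other chromosomes (0.172%). The 5 were Egln3, Sstr1 and Dbpht2, which were higher, and Gpr135 and Spata7, which were lower. Chromosome 1 also held 5, of 532 tested (0.94%), which were Lypd1, Ptprv, Scly, Igsf9 and Enah. The order of chromosomes depended on the threshold. At an unadjusted limma p under 0.001, chromosome 13 had the largest share, 16 of 346 genes (4.62%). Chromosome 12 had 10 of 337 (2.97%) and all placed genes 120 of 10213 (1.17%).

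The 69 tested genes of oxidative phosphorylation, which build the respiratory chain and ATP synthase, had a median difference of -0.51, and 58 were lower and 11 higher. At an unadjusted p under 0.05, 43 were lower and 0 higher, against 9.61% lower among all genes, and none passed the threshold. Ndufb2, a complex I subunit, had the smallest p, and the stretch of its promoter around the start is shown because it holds TGACGTCA, the site of the CREB family, in capitals, 14 bases before the start (RefSeq, GRCm38.p6, chr6:39592505-39592584, plus strand).
Ndufb2: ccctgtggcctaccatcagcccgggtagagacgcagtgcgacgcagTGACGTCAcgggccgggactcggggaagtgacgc
These letters, the same on both strands, occur in 1.88% of all 300-base promoters, in 3.15% of those of genes tested and in 4 of 60 of the list (6.67%), so most of the list lacks them.

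Ndufb2 was at 6.52, 5.91, 7.14 and 7.44 in the double mutants and at 7.56, 7.88, 8.18 and 8.15 in Polb+/- mice, without overlap (difference -1.22 ± 0.29, adjusted p = 0.0697). Sdhc, a membrane anchor of complex II, differed by -0.65 ± 0.17 (adjusted p = 0.0857). The list as a whole did not separate the groups. Its mean was 10.91 and 10.44 on double-mutant arrays 1 and 2 but 11.58 and 11.40 on arrays 3 and 4, against 11.45 to 11.60 on the Polb+/- arrays. The median difference was -0.91 among "20- month" arrays and -0.11 among "20 month" arrays. The 3xTgAD array 3 was low too, at 10.94, while the other 3xTgAD and wild type arrays lay between 11.29 and 11.60.

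Ribosomal protein genes followed the same arrays. Of 54 tested cytosolic ribosomal proteins, 45 were lower and 9 higher (median -0.56). At an unadjusted p under 0.05, 35 were lower and 1 higher, against 9.61% and 8.49% of all genes. Transcripts of ribosomal proteins carry a run of pyrimidines at their start, and Rps26, a small-subunit protein named after its value was seen, is printed as an example with such a run, CTCTTT, in capitals, beginning 5 bases after the annotated start (RefSeq, GRCm38.p6, chr10:128626477-128626526, minus strand).
Rps26: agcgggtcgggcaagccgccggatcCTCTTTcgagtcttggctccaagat
On the transcribed strand, CTCTTT was counted where it lay wholly in the 15 bases from 5 before to 9 after the start. This held for 0.477% of all promoters and for 4 of 46 of this list (8.7%). The run of Rps26 reaches past that window, so Rps26 is not among the 4. Rps26 was at 10.85, 10.28, 12.47 and 11.56 in the double mutants and at 11.90, 12.30, 12.21 and 12.53 in Polb+/- mice, with overlap (difference -1.03 ± 0.315, adjusted p = 0.114). The list mean was 11.60 and 11.12 on double-mutant arrays 1 and 2 and 12.22 and 11.93 on arrays 3 and 4, against 12.04 to 12.25 in Polb+/- mice. Rpl30 and Rpl23a, of the large subunit, differed by -0.84 and -0.81 (adjusted p = 0.0923 and 0.104), with overlap. Among 70 mitochondrial ribosomal proteins, 61 were lower and 9 higher (median -0.25). Mrpl34 differed by -0.88 ± 0.25 (adjusted p = 0.102) and Mrpl36 by -0.47 ± 0.12 (adjusted p = 0.0836). The medians of the ribosomal lists were -0.91 and -0.40 among "20- month" arrays and -0.15 and -0.14 among "20 month" arrays. RNA quality per array was not given in the labels, and its part in the result was not tested.

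Metallothioneins, which bind zinc and copper, had this array pattern as well. Mt1 was at 13.24 and 12.93 on double-mutant arrays 1 and 2, at 14.44 and 14.25 on arrays 3 and 4 and at 14.13 to 14.75 on the Polb+/- arrays (adjusted p = 0.0924). Mt3, the brain metallothionein, was at 9.67, 9.35, 11.64 and 11.15 against 10.93 to 11.83 (adjusted p = 0.131). The list of Nrf2 targets and antioxidant enzymes, which holds both, had 19 of 27 genes lower (median -0.18).

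Enzymes of glycolysis and the TCA cycle lay on the other side of 0. Of 31 tested, 26 were higher and 5 lower (median 0.11), against 55.7% higher among all genes. At an unadjusted p under 0.05, 3 of the 31 were higher, near the 8.49% among all genes. Pgam1, phosphoglycerate mutase, differed by 0.36 ± 0.11 (adjusted p = 0.112) and Idh2, the mitochondrial isocitrate dehydrogenase, by 0.31 ± 0.13 (adjusted p = 0.209). The list median was 0.14 among "20- month" arrays and 0.03 among "20 month" arrays. Of 20 genes of cholesterol synthesis and uptake, 15 were higher (median 0.17), and Hsd17b7, a sterol reductase, was at 10.65, 10.87, 10.53 and 10.55 against 10.07, 10.24, 10.28 and 10.47 (adjusted p = 0.137). Among 16 clock genes, 13 were higher (median 0.18), with Bhlhe40 at 0.47 (adjusted p = 0.122). None of these passed the threshold.

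Lists bearing on the alleles themselves stayed close to the median of all genes. Of 19 base excision repair genes, 11 were higher and 8 lower (median 0.02). Tdp1, which removes protein stuck to DNA ends, differed by 0.53 ± 0.20 (adjusted p = 0.18) and Ung, the uracil glycosylase, by -0.31 ± 0.14 (adjusted p = 0.237). Of 15 genes of double strand break repair and damage kinases, H2ax, the histone variant that marks breaks, was at 8.78, 8.63, 8.99 and 8.98 against 9.09, 9.08, 9.21 and 9.27, without overlap (adjusted p = 0.122). Rad52, of the same list, differed by 0.25 (adjusted p = 0.285). The p53 target Sesn1, a stress-induced antioxidant regulator, differed by 0.25 (adjusted p = 0.188), in a list of 16 with a median of 0.07. Amyloid processing and clearance genes had a median of 0.02 over 20 genes. In that list Lrp1, a clearance receptor for amyloid beta, differed by 0.41 ± 0.12 (adjusted p = 0.104) and Mme, the amyloid-degrading protease neprilysin, by -0.82 ± 0.26 (adjusted p = 0.117). The 17 tau and tau kinase genes had a median of 0.06, with the kinases Mark3 at 0.32 (adjusted p = 0.129) and Csnk1d at -0.29 (adjusted p = 0.162).

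Most microglial and interferon genes had lower values in the double mutants, without passing the threshold. Of 18 microglial genes, 15 were lower and 3 higher (median -0.32), with 5 lower at an unadjusted p under 0.05, against 9.61% lower among all genes. Aif1, the microglial protein Iba1, was at 7.96, 7.05, 7.58 and 8.08 against 8.57, 8.15, 7.85 and 8.67, with overlap (difference -0.73 ± 0.20, adjusted p = 0.102). Ly86, a partner of a Toll-like receptor homologue, differed by -0.66 (adjusted p = 0.16). Trem2, the lipid receptor that microglia use around amyloid plaques, was at 8.10, 7.75, 8.06 and 8.10 in the double mutants and at 8.63, 8.74, 8.42 and 8.59 in Polb+/- mice. Its arrays did not overlap (difference -0.65 ± 0.17, adjusted p = 0.0883). Lpl, a lipase also induced in such microglia, was at 9.31, 9.04, 9.24 and 9.37 against 10.32, 9.94, 10.03 and 10.01 (difference -0.79 ± 0.23, adjusted p = 0.104). On 3xTgAD replicates 4 and 6, which had the highest striatal means of that group, Lpl was at 10.11 and 9.998. On the other 3xTgAD arrays it was at 9.14 to 9.37. Wild type replicates 2 and 4, which had the highest striatal means of their group, were at 10.27 and 10.20. The other wild type arrays were at 9.23 to 9.73. Whether the Lpl difference came from microglia was not tested. The microglial median was -0.13 within the arrays spelled "20- month" and -0.52 within those spelled "20 month". The 18 plaque-associated genes as a list had a median of -0.08, with 10 lower and 8 higher, and its sign was not stable, at 0.07 and -0.29 within these spellings and 0.17 with the striatal marker mean as a covariate. Of 20 interferon and antigen presentation genes, 17 were lower (median -0.15), and Ifitm3 and Bst2, both antiviral membrane proteins, differed by -0.996 and -0.91 (adjusted p = 0.104 for each).

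Astrocyte genes, reactive ones included, had medians of -0.08 and 0.05. Vim, an intermediate filament of reactive astrocytes, was at 8.83, 9.16, 9.50 and 8.50 against 8.33, 8.24, 8.17 and 8.48, without overlap (difference 0.59 ± 0.20, adjusted p = 0.136). Hspb1, also in the reactive list, differed by -0.31 (adjusted p = 0.421). Cldn10 and Sox9, astrocytic claudin and transcription factor, differed by -0.39 and 0.38 (adjusted p = 0.104 and 0.133). The 16 myelin genes had a median of -0.13, with Ppp1r14a at -0.92 (adjusted p = 0.103). That median was 0.14 within "20- month", -0.52 within "20 month" and 0.14 with the striatal covariate. Cryab, a small heat shock protein of oligodendrocytes, was at 9.10 to 10.43 in the double mutants and 10.26 to 10.39 in Polb+/- mice. Choroid plexus markers differed between arrays. Ttr, the secreted transthyretin, was at 4.52, 5.69, 7.24 and 5.31 against 8.19, 11.13, 7.83 and 6.87, and Clic6 at 5.76, 5.63, 6.05 and 6.09 against 7.77, 7.59, 7.34 and 8.34 (difference -1.84 ± 0.431, adjusted p = 0.0687). Of the 5 tested markers of that list, 2 were higher and 3 lower, from -2.62 to 0.77 (median -0.24). The mean of the 5 was 5.20 to 6.25 in the double mutants and 6.07 to 6.96 in Polb+/- mice. Folr1 and Otx2 were not detected on any of the 8 arrays, and Kcne2 and Sostdc1 on 1 and 2 Polb+/- arrays only. Clic6 was at 7.26 and 6.85 on 3xTgAD replicates 4 and 6, which had the highest striatal means of that group. On the other 3xTgAD arrays Clic6 was at 5.39 to 5.56. The part of choroid plexus in other results was not tested. Rgs5, a pericyte gene, differed by -0.995 (adjusted p = 0.139), while Pdgfrb, another, differed by 0.37 (adjusted p = 0.350). Of 15 tested endothelium and pericyte genes, 6 were higher and 9 lower. Hba-a1, a globin gene of red cells, ranged from 11.51 to 14.55 against 13.48 to 14.59. Gbx2, a thalamic marker, was detected on 0 of 4 against 4 of 4 arrays (adjusted p = 0.0687). Like Kcna5, it met the detection filter only through its Polb+/- arrays.

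Of 35 potassium channel genes tested, 22 were higher and 13 lower (median 0.15), against 55.7% higher among all genes. At an unadjusted p under 0.05, 8 were higher and 3 lower, against 8.49% and 9.61% of all genes. Kcna5 was the 1 that passed, on the lower side, and it was tested only through its detection on Polb+/- arrays. Calcium signalling genes had a median of 0.08, while Hpca, a calcium sensor, was at 12.29 to 13.22 against 13.37 to 13.75 (adjusted p = 0.0742), and Camk4 was detected on 0 of 4 against 4 of 4 arrays (adjusted p = 0.0792). In the vesicle list (median 0.11), Sv2b, a vesicle glycoprotein, differed by 0.41 and Cplx2, a complexin, by -0.77 (adjusted p = 0.112 and 0.0823). In the postsynaptic density (median -0.07), Nrgn, a calmodulin buffer of spines, differed by -0.67, and in the receptor list (median 0.09) the AMPA receptor subunit Gria1 differed by -0.52 (adjusted p = 0.116 for each). Grik4, also in the receptor list, differed by 0.38 (adjusted p = 0.204). Npy, an interneuron peptide, differed by -0.65 (adjusted p = 0.136). Rprm, a layer marker, differed by -0.65 (adjusted p = 0.0687), the activity-regulated genes Nr4a2 and Npas4 by -0.75 and -0.66 (adjusted p = 0.105 and 0.209). Gdnf, a survival factor for dopamine neurons, was detected on 0 of 4 double-mutant and 4 of 4 Polb+/- arrays (at least 1.40-fold lower, adjusted p = 0.104). Gdnf also met the detection filter only through its Polb+/- arrays. Its receptor Gfra1 differed by 0.46 (adjusted p = 0.162). Among chaperones and proteasome subunits, Hspb8 differed by -1.25, Cct6a by 0.29 and Psmd1 by -0.40 (adjusted p = 0.0697, 0.139 and 0.122), in lists with medians of 0.01 and -0.10. Psmd2, another proteasome subunit, differed by 0.28 (adjusted p = 0.222). The lists of interneurons, immediate early genes, oligodendrocyte precursors, the unfolded protein response, endothelium and pericytes, and hippocampus had medians between -0.09 and -0.03. Those of blood, thalamus and olfactory and septal genes were at -0.28, -0.23 and 0.22, over 7, 6 and 6 tested genes. The neurotrophin list was at -0.18 and that of serotonin, dopamine and acetylcholine receptors at 0.09.

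Whether the transgene difference depended on the Polb background was tested by the interaction, the difference above minus that of 3xTgAD from wild type. It passed the threshold for 0 of 11072 genes in limma, and 616 had an unadjusted p under 0.05 (5.56%). The smallest p-values were those of Egln3, Lypd1 and Hrk, with interactions of 0.86 ± 0.189, -0.89 ± 0.198 and -1.09 ± 0.243 (adjusted p = 0.652 for each). For Hrk, a pro-apoptotic BH3-only gene, the double mutants were at 5.84, 5.62, 6.47 and 5.65 and Polb+/- mice at 6.57, 6.31, 6.79 and 6.87, with overlap. The count depended on the fit, at 151 genes within "20- month", 1 within "20 month", and 1 without Polb+/- replicate 2 or without Polb+/- replicate 4. Among the 3xTgAD arrays, Polb was at 6.89 and 6.63 on replicates 4 and 6, within or near the Polb+/- range, and at 7.53 to 7.79 on the other 4. Without these 2 arrays the interaction also gave 0 genes.

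In mice labelled as carrying both Polb copies, the same contrast of 3xTgAD with wild type gave 2 genes past the threshold (0.0181%). It included the 2 3xTgAD arrays with Polb at 6.89 and 6.63, and without them 3 genes passed. It shares no array with the comparison described here, but both came from 1 fit with a common spelling block, so they are not fully independent. Of the 24 called genes, 22 had the same sign in both (91.7%), against 7184 of all 11072 genes (64.9%). With no spelling block, 21 of the 24 had the same sign (87.5%), against 66.1% of all genes. With 3xTgAD and wild type compared within 1 spelling, 22 of the 24 kept the sign among "20- month" arrays and 18 among "20 month" arrays. Without the low-Polb arrays 20 of the 24 had the same sign. Of the 24, 10 had an unadjusted p under 0.05 in the wild type background, all 10 with the same sign, and none of them passed the threshold there. Of all 11072 genes, 936 had such a p, 759 of them with the same sign. The interaction had an unadjusted p under 0.05 for 18 of the 24, against 5.56% of all genes, although the genes had been selected on 1 of the differences it is made of. The sizes were unequal, with a median absolute difference of 0.92 in the Polb+/- background, where the genes had been selected, and of 0.22 in the other. Vps33a differed by 0.31, Gm3696 by 1.60, Gm5796 by 0.98 and Spata7 by -1.88 in the wild type background, whereas Lypd1 differed by -0.13, Dbpht2 by 0.16 and Ptprv by -0.03. Egln3 and Cpeb1 had the opposite sign, at -0.11 and -0.09. The striatal list had a median of -0.10 there, and the oxidative phosphorylation list one of -0.18. Across all genes, the correlation of both differences was 0.47, as a description over genes that are not independent.

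**Figure D4:**
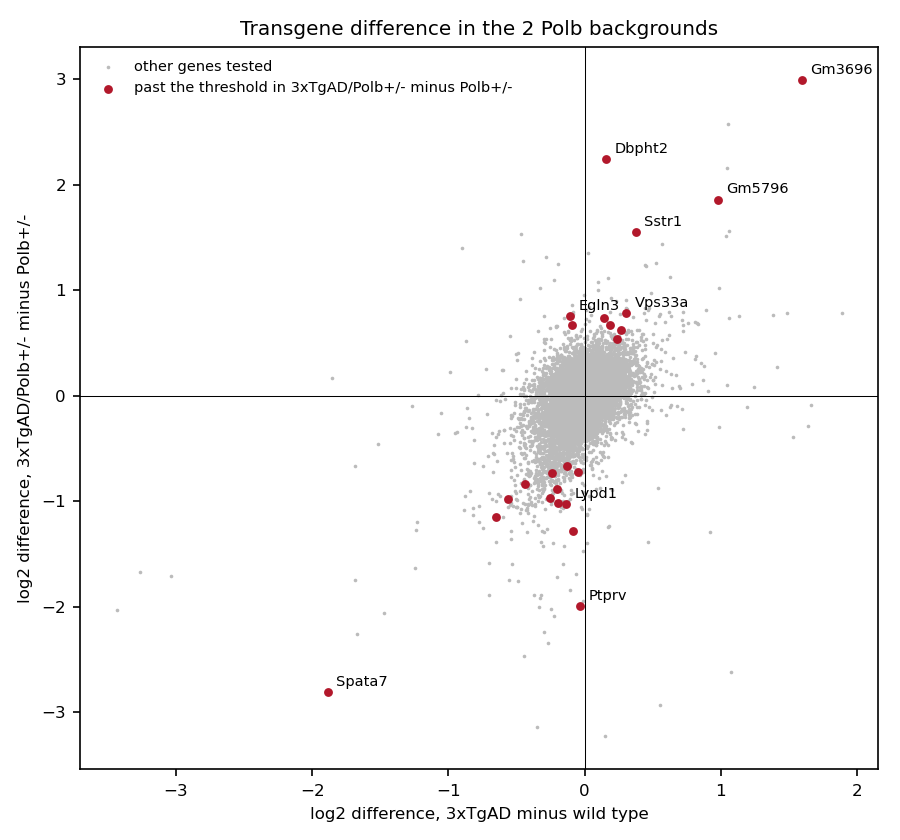
Each point is 1 of the 11072 genes tested, with the log2 difference of 3xTgAD minus wild type on the horizontal axis and of 3xTgAD/Polb+/- minus Polb+/- on the vertical axis. Of the 24 genes that passed the threshold in the latter, drawn in red, 22 have the same sign on both axes, and most lie nearer to 0 on the horizontal axis.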

How the data were processed

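The deposited table held, per the file headers, a non-normalised intensity and a detection p-value for 25697 probes on each of 19 Illumina bead arrays. GenomeStudio 1.9.0 is named in the submitters' processing notes, and other steps are not given in the sources used here. A further deposited table gave scores, which equalled the z score of the log10 intensity within the array to within 5e-10. It was used as an alternative.

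Intensities were background-corrected from the detection p-values and quantile-normalised with neqc (limma 3.58.1, R 4.3.3, offset 16) to log2 intensity. Probes with a detection p under 0.05 on at least 4 arrays were kept (14942), and the brightest stood for a gene. Of the probes, 23978 had 1 symbol and 1719 had no single one; 23962 were matched through Entrez identifiers to RefSeq names. The limma fit (lmFit, eBayes) held all 19 arrays, 1 mean per genotype and the label spelling as a block, with 14 residual and 4.64 prior degrees of freedom. The script was checked on simulated data. The number of arrays limits the precision.

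Genes were chosen for naming if past the threshold, up to 15 in each direction, or among the 3 leading the interaction where none passed. The targeted genes were added, and per list up to 4 members past the threshold or otherwise the 2 with the smallest p. Not every list member so chosen is named in the text. Named genes from outside this rule are said to be chosen after their values were seen. The 40 lists (1094 genes) and the comparison were chosen with earlier results of these data known. Alternatives were the block, the arrays fitted, filters, background correction, normalisation, probe summary, array weights, a striatal covariate and leaving out each array. A gene whose group was undetected on all its arrays has a bound as its fold, from the lowest detected signal of each array. An allele of the 3xTgAD line, its gene and 1 listed marker are not reported here.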

Additional observations from a re-analysis of the deposited data

Results flagged for a closer look

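In groups of 4 arrays, an array was picked out where its gap to the nearest other array exceeded Dixon's 95% critical value. This held for 12 of 272 groups of values (4.41%), where chance alone gives about 1 in 20. Among genes past the threshold, Polb+/- replicate 2 was high for Sstr1 (5.88, the others 4.49 to 4.60) and for Egln3 (7.20, the others 6.72 to 6.77), and 3xTgAD/Polb+/- replicate 3 was high for Kcna5 (5.01, the others 4.73 to 4.77). Polb+/- replicate 2 also had the highest mean of choroid plexus markers, 6.96 against 6.07 to 6.22. On 3xTgAD/Polb+/- replicate 3, the means of 3 marker lists stood apart, at 8.65 for striatal projection neurons (the others 9.35 to 9.48), 8.03 for hippocampus (6.95 to 7.13) and 7.84 for endothelium and pericytes (7.56 to 7.58), and Vps39 was low at 7.26 (7.72 to 7.79). Replicate 2 of that group was low for Trem2, at 7.75 (8.06 to 8.10), and for Psmd1, at 7.54 (7.81 to 7.85). Rpl30 was high on Polb+/- replicate 4, at 10.62 (9.61 to 9.77), and Sv2b low on Polb+/- replicate 3, at 12.25 (12.56 to 12.57).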

How the results depend on the processing

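The number of genes past the threshold, 11 higher and 13 lower, depended on the fit. It was 5 and 5 with no spelling block, 22 and 130 with only the 8 arrays, 401 and 871 within "20- month", 5 and 7 within "20 month", 2 and 2 with no filter, 12 and 22 with quantile normalisation and no background correction, 7 and 9 from the authors' value table, 357 and 627 with array weights, and 0 and 0 with the striatal marker mean as a covariate. Leaving out 1 array gave 1 to 250 higher and 2 to 535 lower. The largest counts came without 3xTgAD/Polb+/- replicate 3, and 40 and 78 came without replicate 4. Without replicate 1 it was 1 and 2, without replicate 2 it was 1 and 3. Without Polb+/- replicate 1, 3 or 4 it was 2 and 2, 1 and 2, and 4 and 4. The causes were not tested. Vps33a and Lypd1 passed in 20 of 22 alternatives, and not within "20 month" or with the striatal covariate. Array numbers did not pair the samples: same-numbered arrays correlated at 0.13, -0.15, 0.05 and 0.04 once group and spelling were removed. The replicate block gave 15 higher and 29 lower, of which 17 were among the 24, and 0 interactions. Leaving out the 3xTgAD arrays with low Polb, chosen after seeing the data, gave 15 and 38, and averaging the 3xTgAD arrays of the same code gave 8 and 16. The interaction gave 151 genes within "20- month", 1 within "20 month", 0 to 1 when 1 array was left out (1 without Polb+/- replicate 2 or 4) and 0 otherwise.

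Signs were compared across the alternatives for 94 genes, and all sign changes were in genes that missed the threshold. Rad52, Grik4, Psmd2, Hspb1 and Pdgfrb, named above, were not among those compared. Within "20- month", Polb was 0.0064, Vps11 -0.042 and Vps18 0.11. Polb was 0.020 with array weights, and with the mean of a gene's probes Csnk1d was 0.062 and Vps16 0.036. With the striatal covariate, Vps39 was 0.073, Drd2 0.11 and Ppp1r1b 0.014, and the median of the striatal list, by construction, 0.01. Leaving out 1 array moved Mapt to between -0.047 and -0.0146 in 3 cases, and gave values from -0.24 to 0.034 for Polb, -0.14 to 0.00522 for Vps18 and up to 0.0069 for Vps39.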
